A study of Homo sapiens with 16 samples.

Results

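Open chromatin of DND41 cells after 24 h of ACBI-1 was compared with that of DND41 cells after 24 h of DMSO. The comparison used 4 of the 16 libraries of the series, 2 with 100 nM ACBI-1 and 2 with DMSO, chosen by the code for line, treatment and time in the names of the deposited peak lists. DND41 is an established human T-cell acute lymphoblastic leukaemia line that carries activated NOTCH1. The assay was ATAC-seq: Tn5 transposase cuts and tags DNA that is not wrapped in nucleosomes, and each library is represented by its deposited list of peaks. The other 12 libraries came from DND41 at 3 h and from MOLT4, a second line of the same leukaemia, at 3 h and 24 h, each with 2 ACBI-1 and 2 DMSO libraries. They are used here to score regions that they did not help to choose.

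ACBI-1 is a PROTAC, a molecule that links a target protein to a ubiquitin ligase. It recruits VHL to SMARCA2 and SMARCA4, the alternative ATPases of SWI/SNF complexes, and to the PBRM1 subunit, and these proteins are then degraded. SWI/SNF complexes slide and evict nucleosomes, and enhancers depend on them more than promoters do in many cell types. In T-cell leukaemia, enhancers bound by lineage factors and by NOTCH1 keep growth and identity genes active.

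The cell line field and the title named DND41 in all 4 libraries. In 8 of the 16 samples, including those of DND41 at 3 h, the field named the other line, and titles were followed. Over regions merged across all libraries, each of the 4 had its highest Jaccard index (shared regions over all regions of a pair) with another DND41 library, at 46.4% to 54.1%, against 39.4% to 41.8% for the most similar MOLT4 library. The lowest indices with DND41 libraries, 36.4% to 38.8%, lay within the MOLT4 range. Read depth is unknown for these lists, so a missing peak can lie below what a library could detect. Nothing in the labels tells separate cultures from repeat libraries of 1 culture, so the spread between replicates may be technical.

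Peaks were fewer after ACBI-1 than after DMSO. On chromosomes 1 to 22 and X there were 33145 and 32113 peaks in the ACBI-1 libraries, against 46712 and 42684 in the DMSO libraries, and the groups did not overlap. The log2 ratio of ACBI-1 to DMSO was -0.45 (two-sided exact permutation p = 0.333). Peaks covered 14.9 ± 0.149 Mb with ACBI-1 and 20.7 ± 1.18 Mb with DMSO (SD, n = 2 each), a log2 ratio of -0.47 with the same exact permutation p. With 2 libraries against 2 no p below 0.333 can be reached, so none of the differences among the 4 libraries alone can pass a test. Median peak width was 354 ± 9.90 bp with ACBI-1 and 354 ± 8.49 bp with DMSO (SD, n = 2 each).

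Merging peaks of the 4 lists that shared at least 1 base gave 78119 regions. A region was called lost when it had a peak in neither ACBI-1 and in both DMSO libraries, gained when it had a peak in both ACBI-1 and in neither DMSO library, and kept when all 4 libraries had one. There were 7939 lost, 1052 gained and 17369 kept regions. The lost regions were 27.2% of the 29145 regions that both DMSO lists held, and the gained regions 5.29% of the 19888 that both ACBI-1 lists held. Lost regions thus outnumbered gained ones 7.55 to 1. These counts follow from the peak calls that define the classes and are given without a test.

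Between the classes lay regions with partial calls. In a further 3837 regions 1 ACBI-1 library and both DMSO libraries had a peak, 2093 times ACBI-1 replicate 1 and 1744 times replicate 2. Both ACBI-1 and 1 DMSO library had a peak in 1467. Peaks in a single library made up 17543 regions for ACBI-1 and 25761 for DMSO, with median widths of 213 and 209 bp, narrower than any class found in both libraries of a treatment. Of the regions of 1 ACBI-1 library, 60.8% and 62.9% were also in the other, and of those of 1 DMSO library 62.8% and 69.0%. Many regions of every list were therefore not found again in its own replicate.

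The counts changed when lists were shortened to their widest peaks. When every library was cut to its 26145 widest peaks, the length of the shortest list of the series, 3866 regions were lost and 1830 gained. That is 18.7% of regions in both DMSO and 10.1% of those in both ACBI-1 libraries, still with more lost than gained. Dropping a library loosens the definition. Without DMSO replicate 1 or 2 lost regions numbered 19158 or 22819 and gained regions 1816 or 1764, and without ACBI-1 replicate 1 or 2 gained regions numbered 9572 or 10167.

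The length covered by peaks was divided among these classes. Lost regions held 0 Mb in either ACBI-1 library, against 2.93 and 2.82 Mb in the DMSO libraries, which is 49.8% of the difference between the treatments. Kept regions held 11.01 Mb in each ACBI-1 library, against 12.7 and 12.3 Mb in the DMSO libraries, or 25.7% of the difference. Regions in both DMSO and 1 ACBI-1 library made up 18.4%, and regions of a single library 15.99%. Gained regions added 0.303 and 0.312 Mb in the ACBI-1 libraries. The smaller covered length thus came mainly from missing peaks, with a further part from narrower peaks at sites that stayed open.

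**Figure D1:**
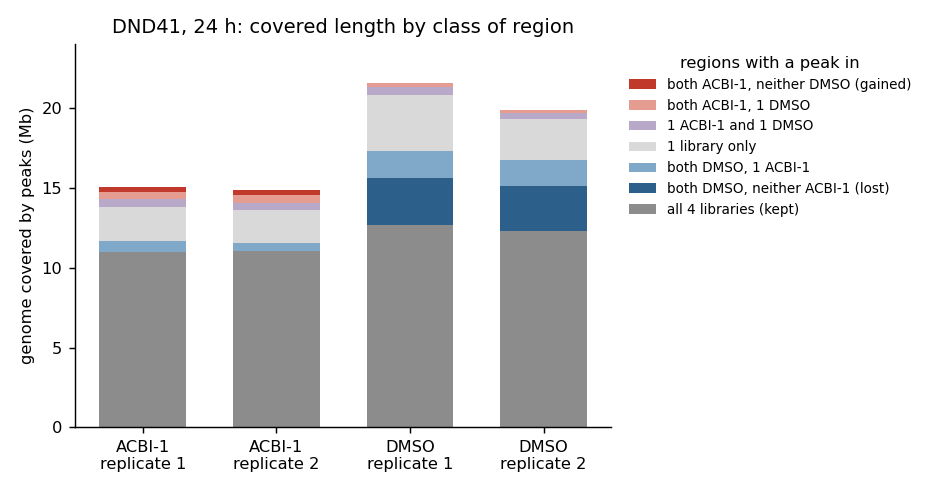
Length of the genome covered by peaks (Mb, vertical axis) in each of the 4 libraries, stacked by the class of region. The ACBI-1 bars end at 15.0 and 14.8 Mb and the DMSO bars at 21.5 and 19.9 Mb, and the dark blue segment of lost regions, 2.93 and 2.82 Mb, appears in the DMSO bars alone.

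Lost regions were narrow and kept regions were broad. Mean DMSO peak width had a median of 335 bp over lost regions, with 90% of them between 197 and 615 bp, against a median of 687.5 bp over kept regions, with 90% between 277.5 and 1266 bp. Regions in both DMSO and 1 ACBI-1 library lay between them at 394 bp. Gained regions were narrower still, with a median ACBI-1 width of 275.75 bp and none above 734.5 bp. Each library gave the same order. Lost regions had medians of 338 and 323 bp in the DMSO libraries, and kept regions 697 and 674 bp.

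Divided into 10 groups of about equal size by DMSO width, regions of up to 253.5 bp were lost in 63.6% and kept in 18.6% of cases. Between 435 and 513 bp 32.5% were lost. From 996 bp upward 3 of 2927 regions, or 0.102%, were lost, and 98.8% were kept. These widths come from the libraries that define the classes. Widths read from the 2 DND41 DMSO libraries of 3 h, at the 24838 regions with a peak in both, gave the same gradient. Loss at 24 h was 49.4% for regions of up to 231 bp at 3 h and 0.241% for those of 858 bp or more. The median 3 h width was 302 bp for lost and 560.5 bp for kept regions.

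Regions without a MOLT4 peak were lost more often than those shared with MOLT4. Of 5788 regions with a peak in neither MOLT4 DMSO library of 24 h, 57.0% were lost and 22.4% kept. Of 20478 regions with a peak in both, 16.8% were lost and 73.4% kept. Regions absent from MOLT4 were also narrower, with a median of 324 bp against 631 bp. Within the groups of equal width the gap was small for the narrowest regions, at 68.2% against 61.1% lost. It was widest between 435 and 513 bp, where 56.6% of the regions absent from MOLT4 and 24.9% of the shared ones were lost. Of all lost regions, 41.6% were absent from both MOLT4 DMSO libraries and 43.2% were in both, against 7.48% and 86.5% of kept regions.

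**Figure D2:**
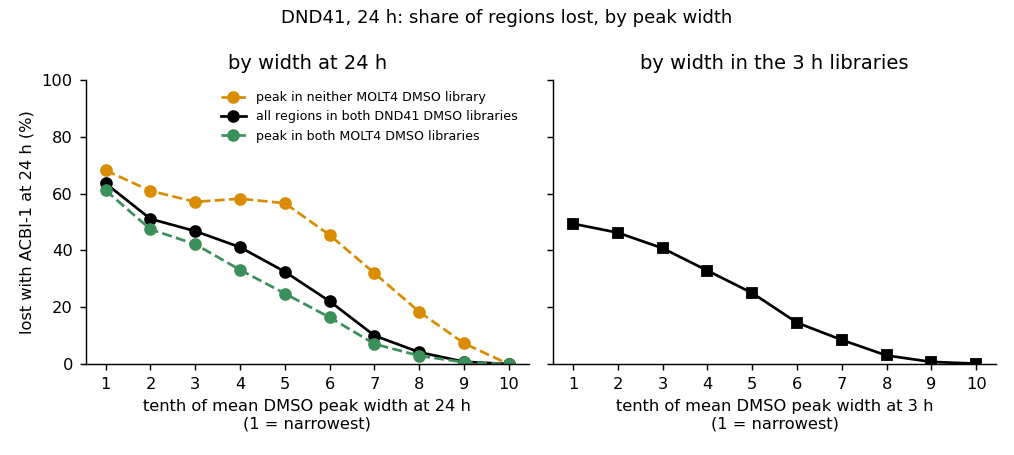
Percent of regions in both DND41 DMSO libraries that were lost with ACBI-1 at 24 h (vertical axis), over 10 groups of rising DMSO peak width, measured at 24 h (left) and in the 3 h libraries (right). On the left the line for all regions falls to 0.102% in the broadest group, against 63.6% in the narrowest, and the line for regions absent from MOLT4 lies above that for shared regions in every group except the broadest.

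The broadest lost regions show how far a missing peak can be read. The broadest of all lay at chr12:4938172-4939497 (hg19, counted from 1), with no peak in either ACBI-1 library and peaks of 788 and 1326 bp in the DMSO libraries. An ACBI-1 peak lay 265 bp away, and both ACBI-1 and both DMSO libraries of DND41 at 3 h had a peak in the region. The second, at chr22:30662661-30663933, had DMSO peaks of 754 and 1273 bp and an ACBI-1 peak 43 bp from its edge. At these 2 regions open chromatin was thus still called close by with ACBI-1.

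Other broad lost regions stood farther from any ACBI-1 peak. At chr22:50708379-50709449 the DMSO peaks were 978 and 1024 bp, and the nearest ACBI-1 peak lay 18349 bp away. At chr10:45408524-45409706 they were 1026 and 954 bp, and the nearest ACBI-1 peak lay 18468 bp away. At chr1:8212589-8213680 they were 995 and 935 bp, with no ACBI-1 peak within 169853 bp. The other 3 of the 8 broadest lay at chr9:130558560-130559653, chr22:29188083-29189206 and chr10:2939994-2941003. In the 12 other libraries these 8 regions had peaks in 1 to 5 of 6 ACBI-1 libraries and in 1 to 6 of 6 DMSO libraries. The number was lower for ACBI-1 than for DMSO at 6 of the 8 and equal at the other 2.

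Among all lost regions such close neighbours were uncommon. The nearest ACBI-1 peak lay within 500 bp for 369 of 7939 lost regions, or 4.65%, and the median distance was 15996 bp. Kept regions were about as close to their nearest other ACBI-1 peak, with 4.26% within 500 bp and a median of 16127 bp. Joining peaks up to 500 bp apart left 7779 lost, 1163 gained and 17367 kept regions.

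Peaks at kept regions were mostly narrower with ACBI-1. Over the 17369 kept regions the median log2 ratio of mean ACBI-1 to mean DMSO width was -0.14, with 90% of regions between -0.95 and 0.44. Both ACBI-1 peaks were narrower than both DMSO peaks at 7062 kept regions, or 40.7%, and wider than both at 1602, or 9.22%. Relative to the mean of the 4 libraries, the median log2 width was -0.08 in each ACBI-1 library and 0.09 and 0.05 in the DMSO libraries. That difference of -0.14 again had the lowest possible value of the exact permutation test, p = 0.333. The median ratio was 0.00 in the narrowest of 10 groups by mean width of both treatments and between -0.22 and -0.13 in the other 9.

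A few kept regions changed width several-fold. At chr5:120360229-120361974 the peaks were 253 and 188 bp with ACBI-1 and 1746 and 1379 bp with DMSO, a log2 ratio of -2.83. At chr12:125478060-125479363 they were 188 and 182 bp with ACBI-1 and 1288 and 847 bp with DMSO (log2 ratio -2.53). At chr1:226840953-226842343 and chr22:36044290-36045407 the log2 ratios were -2.31 and -2.24. At all 4 the broader ACBI-1 peak was at most 314 bp, in the size range of lost regions.

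The reverse was seen at chr4:15787615-15789098, with peaks of 1340 and 1484 bp with ACBI-1 and 426 and 201 bp with DMSO (log2 ratio 2.17). At chr2:210072971-210074064 they were 1094 and 961 bp with ACBI-1 and 298 and 194 bp with DMSO (log2 ratio 2.06). The next were at chrX:12968335-12969421 and chr5:65913498-65914182, with log2 ratios of 1.73 and 1.71. The groups did not overlap at any of these 8 regions, which were picked for the size of the ratio and carry no test. The chromosome 4 region had a peak in 1 of 6 ACBI-1 and 1 of 6 DMSO libraries among the other 12.

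The lost regions were then scored in the 12 libraries that had no part in choosing them, exchanging treatment labels within each line and time. They had a peak at 26.7 ± 11.04% in ACBI-1 and 62.0 ± 13.8% in DMSO libraries (SD, n = 6 each). The difference was -35.3 percentage points, lower in all 12 pairings of ACBI-1 and DMSO libraries that share line and time (two-sided exact permutation p = 0.00926, the smallest the design can give; adjusted over 4 such tests 0.0123). Kept regions had a peak at 87.5 ± 4.06% in ACBI-1 and 92.4 ± 3.62% in DMSO libraries (SD, n = 6 each). That difference was -4.84 points, also lower in all 12 pairings (exact permutation p = 0.00926, unadjusted). The difference at lost minus that at kept regions was -30.5 points (exact permutation p = 0.00926, adjusted 0.0123). Kept regions weighted to the DMSO widths of the lost ones had a peak at 70.2 ± 6.72% in ACBI-1 and 77.5 ± 9.60% in DMSO libraries (SD, n = 6 each). At like width lost regions were thus called less often than kept ones with DMSO too. Against these weighted kept regions the difference was -28.1 points, lower in 12 of 12 comparisons (exact permutation p = 0.00926, adjusted 0.0123). Without DMSO replicate 1 or 2 of DND41 at 24 h the difference at lost regions was -19.2 or -17.3 points, that of lost minus kept -14.4 or -12.5, and that at like width -12.7 or -10.8 (exact permutation p = 0.00926 each). ACBI-1 lists were also the shorter ones here (means of 2 libraries). They held 28762.5 against 42532.5 peaks in DND41 at 3 h and 30139 against 43574.5 in MOLT4 at 3 h. In MOLT4 at 24 h it was 31310.5 against 39398. With the 26145 widest peaks of each library, 3866 regions counted as lost. The differences were then -21.2 points at lost regions, -21.0 for lost minus kept and -25.8 at like width (exact permutation p = 0.00926 each). The regions lost in DND41 at 24 h therefore lacked a peak more often with ACBI-1 in the other libraries too, and more so than kept regions of like width.

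By line and time, lost regions had a peak at 28.2% and 44.2% in the ACBI-1 libraries of DND41 at 3 h, against 85.5% and 71.4% in the DMSO libraries. In MOLT4 at 3 h it was 27.3% and 30.7% with ACBI-1 and 57.7% and 55.7% with DMSO. In MOLT4 at 24 h it was 15.9% and 13.7% with ACBI-1 and 51.4% and 50.3% with DMSO. The groups did not overlap in any of the 3. The differences of -42.3, -27.7 and -36.0 points were not separable from each other, with exact permutation p of 0.389 to 0.778 for the 3 pairs, where 0.0556 is the smallest possible. The tag p03 in the peak names of the 24 h libraries and p04 in those of 3 h coincide with time, so time and whatever the tag stands for cannot be told apart.

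The converse was not seen at gained regions with all peaks, but was seen with lists cut to equal length. With all peaks, gained regions had a peak at 24.1 ± 4.62% in ACBI-1 and 26.1 ± 9.27% in DMSO libraries among the 12 others (SD, n = 6 each). That was a difference of -2.04 points (exact permutation p = 0.657, adjusted 0.657). It was -10.5 points in DND41 at 3 h, -2.28 in MOLT4 at 3 h and 6.61 in MOLT4 at 24 h. At 24 h in MOLT4 the groups did not overlap, with 27.8% and 23.7% with ACBI-1 and 19.6% and 18.6% with DMSO. The direction of the pooled value changed with the peaks used. It was 4.81 points with peaks of at least 250 bp (exact permutation p = 0.259) and 0.0 points when peaks were matched by midpoints. With the 26145 widest peaks of each library, where 1830 regions counted as gained, the difference was 19.8 points, higher with ACBI-1 (exact permutation p = 0.00926).

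**Figure D3:**
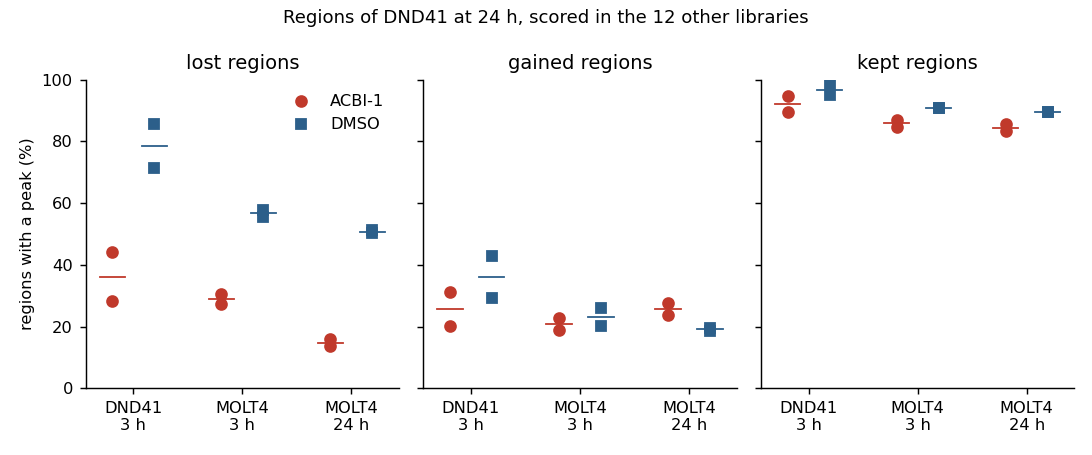
Percent of the lost, gained and kept regions of DND41 at 24 h that had a peak in each of the 12 other libraries (vertical axis), by line and time, with ACBI-1 as red circles, DMSO as blue squares and lines at the means of 2. For lost regions every ACBI-1 library, at 13.7% to 44.2%, lies below every DMSO library, at 50.3% to 85.5%, while for gained regions the treatments overlap at 3 h in both lines.

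Of the 7939 lost regions, 5502 also had a peak in both DND41 DMSO libraries of 3 h. Of these, 36.1% had a peak in neither ACBI-1 library of 3 h, 32.7% in 1 and 31.2% in both. The corresponding shares of the 16409 kept regions that both DMSO lists of 3 h held were 1.69%, 7.03% and 91.3%. Of all regions that both of those DMSO lists held, 21.1% had a peak in neither ACBI-1 library of 3 h. The 3 h ACBI-1 lists thus split the 5502 lost regions that both DMSO lists of 3 h held about evenly between absent, variable and still present. In MOLT4 at 24 h, 3432 of the lost regions had a peak in both DMSO libraries, and 61.1% of these had none in either ACBI-1 library, against 4.53% of kept regions and 27.9% of all regions that both of those DMSO lists held. In MOLT4 at 3 h the count was 3965, of which 33.8% were in neither and 41.0% in both ACBI-1 libraries, against 2.68% and 90.6% of kept regions. There 22.4% of all regions in both DMSO libraries had no ACBI-1 peak.

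Across all 12 other libraries, 6500 lost regions, or 81.9%, had a peak in fewer ACBI-1 than DMSO libraries, and 203, or 2.56%, in more. For kept regions these shares were 20.4% and 4.49%. A peak in all 12 was found for 69.3% of kept and 2.41% of lost regions, which leaves no room for a difference there. Kept regions were not matched by width here. Gained regions had a peak in more ACBI-1 than DMSO libraries in 25.9% of cases and in fewer in 31.7%. A peak in none of the 12 was found for 6.29% of lost, 25.7% of gained and 0.132% of kept regions, so gained regions were the class least often seen elsewhere.

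In 211 of the 7939 lost regions the pattern was complete, with a peak in none of the 6 other ACBI-1 and in all 6 other DMSO libraries. Of the 17369 kept regions 4 had this pattern. The reverse was seen in no lost, gained or kept region. The 3 broadest lost regions with the complete pattern, named after their values were seen, were at chr17:80259758-80260596, chr11:69064619-69065681 and chr17:4339838-4340529. They had no ACBI-1 peak, and DMSO peaks of 812 and 726 bp, of 465 and 1010 bp, and of 669 and 692 bp. They were picked as the broadest, and each exceeded the 615 bp below which 95% of lost regions lay.

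The broadest gained region lay at chr6:20126785-20127840, with peaks of 741 and 728 bp with ACBI-1 and none with DMSO. It had a peak in 4 of 6 ACBI-1 and 3 of 6 DMSO libraries elsewhere. The region at chr9:100836580-100837313 had ACBI-1 peaks of 702 and 480 bp, and a peak in 4 of 6 ACBI-1 and 0 of 6 DMSO libraries elsewhere. The region at chr7:130644537-130645292 had ACBI-1 peaks of 488 and 756 bp and no peak in the 12 others. Of the 8 broadest gained regions the chromosome 9 region was the one with several ACBI-1 and no DMSO peaks elsewhere. The other 5 were at chr8:110966058-110967015, chr2:57112555-57113403, chr4:129783980-129784870, chr6:145828849-145829552 and chr2:1708679-1709302.

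Loss was spread over all chromosomes but was lowest on chromosome 19, the most gene-dense human chromosome. Of 1126 chromosome 19 regions in both DMSO libraries, 137, or 12.2%, were lost. The other chromosomes ranged from 22.2% on chromosome 16 to 33.4% on chromosome 13. Chromosome 19 also had the highest median DMSO width, at 596.75 bp. When each chromosome was given the width mix of all regions, chromosome 19 stood at 17.7% and the others between 24.7% on chromosome 11 and 31.4% on chromosomes 21 and 22. Gained regions were unevenly spread as well, with 4 of 910 regions in both ACBI-1 libraries, or 0.44%, on chromosome 19 and 52 of 551, or 9.44%, on the gene-poor chromosome 13.

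The chromosome 19 difference was looked for in the 12 other libraries, a test added after the values were seen. Of the 24 h DMSO regions on chromosome 19, 80.7 ± 4.15% had a peak in ACBI-1 and 89.0 ± 2.94% in DMSO libraries (SD, n = 6 each). On the other chromosomes it was 65.1 ± 7.31% in ACBI-1 and 80.8 ± 7.78% in DMSO libraries (SD, n = 6 each). The treatment difference was smaller on chromosome 19 by 7.37 points on average, and smaller in 12 of 12 comparisons (exact permutation p = 0.00926, unadjusted). Chromosome 19 was picked for its low loss at 24 h. At the widths of chromosome 19 regions the treatment difference was smaller by 5.98 points on average, and smaller in 11 of 12 comparisons (exact permutation p = 0.0185, unadjusted). By line and time it was smaller by 2.16 points in DND41 at 3 h, 5.94 in MOLT4 at 3 h and 9.83 in MOLT4 at 24 h.

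**Figure D4:**
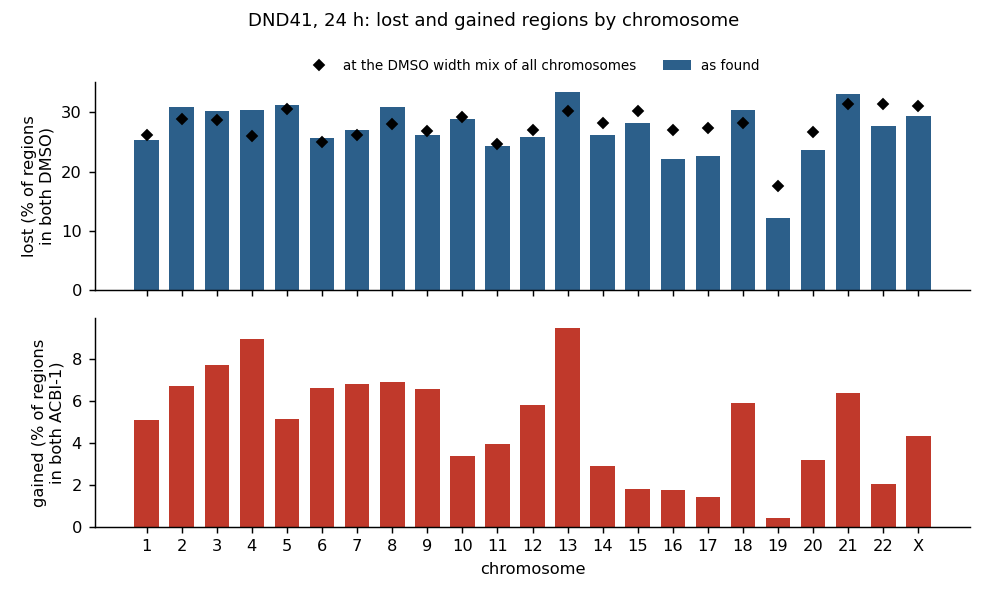
Percent of regions in both DMSO libraries that were lost (top, bars) and percent of regions in both ACBI-1 libraries that were gained (bottom) on each chromosome of DND41 at 24 h; diamonds give loss at the width mix of all chromosomes. Chromosome 19 has the lowest bar in each panel, at 12.2% lost and 0.44% gained, and the lowest diamond, at 17.7%.

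Loss was compared by the number of neighbouring regions, without a test. Of the regions that both DMSO lists held, 27.2% were lost where no other such region lay within 10 kb, 27.0% where 1 did and 28.6% where 2 or more did. Crowded regions were narrower, with a median of 453.5 bp for 2 or more neighbours against 528.5 bp for none, and at the width mix of all regions the percentages were 24.8% for 2 or more and 28.0% for none. At that width mix, loss was 22.1% for the 366 regions with 3 or more neighbours within 10 kb. Within 5 kb it was 19.5% for the 404 regions with 2 or more and 28.0% for those with none. Within 20 kb loss was 26.0% for the 6250 regions with 2 or more and 28.0% for those with none. At like width the percentage was thus lower for crowded than for isolated regions, by less at 20 kb. The unadjusted percentages were close. Lost regions lay a median of 39658 bp from the nearest kept region and 71389 bp from the nearest other lost one, and kept regions 28918 bp from the nearest other kept one. Gained regions lay farther from kept regions, at a median of 75941.5 bp, but closer to any other ACBI-1 peak, at a median of 13658 bp against 15996 bp for lost and 16127 bp for kept regions.

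When regions up to 10 kb apart were joined into loci, 7289 loci held a lost region, of which 577 held at least 2, 61 at least 3 and 10 at least 4. Of 1131 loci with 3 or more regions in both DMSO libraries, 638, or 56.4%, held lost and kept regions side by side. None were lost in 412, or 36.4%, and all in 28, or 2.48%. These shares cover the 1131 loci alone, of 23097 with a region in both DMSO libraries, and are read against the 27.2% of all such regions that were lost; whether loss clustered within loci was not tested.

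The largest number of lost regions in a locus was 5, reached at 2 loci. At chr1:172608173-172648829, 3 regions had a peak in each ACBI-1 library, against 8 in each DMSO library, and 2 regions were kept. At 1 of its lost regions an ACBI-1 replicate 2 peak lay just beside the DMSO peaks. In DND41 at 3 h these 5 regions had 4 and 5 peaks with ACBI-1 and 5 and 5 with DMSO, and in MOLT4 at 24 h they had 0 and 0 with ACBI-1 and 2 and 2 with DMSO. At chr12:104850394-104892574, 5 and 4 regions had a peak with ACBI-1 and 9 and 9 with DMSO, with 3 kept and 1 gained. At 3 h in DND41 its 5 lost regions had 3 and 3 peaks with ACBI-1 and 4 and 4 with DMSO.

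The next 3 loci, first by position among those with 4 lost regions, lay at chr1:192094468-192139694, chr4:140992135-141044361 and chr5:35796821-35831052. On chromosome 5, 2 and 1 regions had a peak with ACBI-1 and 6 and 5 with DMSO. All 4 regions of a locus were lost at chr6:45404471-45419024, with 0 and 0 peaks in the ACBI-1 libraries and 4 and 4 in the DMSO libraries. At the other extreme, chr17:8054465-8114231 had 8 and 8 regions with a peak with ACBI-1 and 10 and 9 with DMSO, and none of its 9 regions in both DMSO libraries was lost. The loci on chromosomes 6 and 17 were named after their values were seen.

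**Figure D5:**
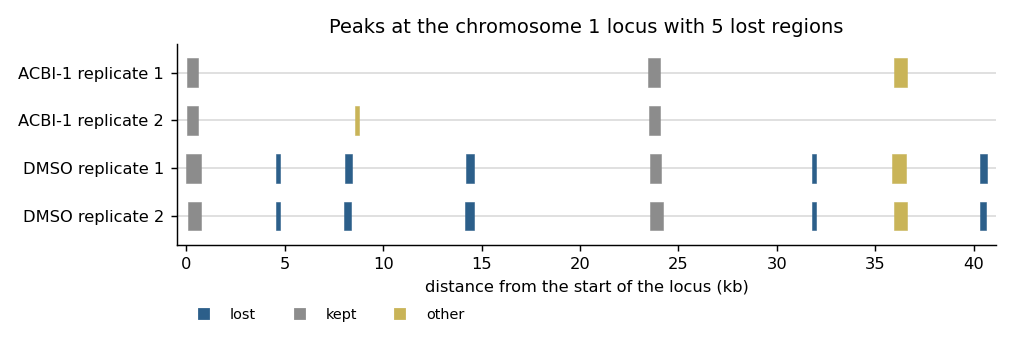
Peaks of the 4 libraries (rows) at the chromosome 1 locus with 5 lost regions, drawn to scale along the distance from the start of the locus (kb, horizontal axis) and coloured by class of region, with regions of partial calls as other. The ACBI-1 rows have 3 peaks each and the DMSO rows 8 each. The kept region near the centre lies between lost ones, and the other kept region forms the left end of the locus.

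Few loci held more than 1 gained region. There were 1052 gained regions and 51946 loci in all, and whether gained regions clustered was not tested. Of 1042 loci with a gained region, 9 held 2 or more, and 1, at chrX:123342552-123357927, held 3. There 5 and 5 regions had a peak with ACBI-1 and 3 and 3 with DMSO, and 1 region was lost. The next 4 loci by position were at chr1:248266589-248286069, chr2:166162822-166172190, chr6:93922555-93929837 and chr7:85814717-85842789. In 120 loci, or 11.5% of those with a gained region, a lost region lay in the same locus. Of all 51946 loci, 7289 held a lost region. Whether lost and gained regions shared loci more or less often than that was not tested.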

How the data were processed

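Per the submitters' processing notes, the tools were Bowtie2, Picard, SAMtools and MACS2 2.1.1.2016030 on hg19; their roles and settings are not given there. Each deposited file lists the peaks of 1 library as chromosome, start, end and name. Positions were the values used; peak heights and depth were not analysed here. Groups follow sample titles. Peaks on chromosomes 1 to 22 and X were merged with Python 3.11.15 and numpy 2.4.6 when they shared 1 base; a library's width in a region is its widest peak. Tests were two-sided exact permutation tests over libraries, within line and time where several strata entered (216 exchanges), with Benjamini-Hochberg adjustment. The procedure was run on simulated peak lists in which every peak present was called. Those lists checked the class calls and do not show how the tests fare with missed peaks. Matching by width used 20 bins. With gene tables at hand for GRCh38, regions were given no gene names and no sequence was read. Cell type markers were therefore not examined. Regions were named by a rule: the 8 broadest lost and gained, the 4 largest width ratios in each direction among kept regions of at least 500 bp in the broader treatment, and the 5 loci with most lost or gained regions. Members, lists and tests were chosen with earlier results of these data known. Replicate numbers were not treated as pairs.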

Additional observations from a re-analysis of the deposited data

How the results depend on the processing

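Of 61 alternatives, leaving out single libraries aside, 55 kept the direction, the side of the threshold of 0.05 and counts within 1.5 times. With equal lists of the 26145 widest peaks, lost regions numbered 3866 and gained regions 1830. The difference at gained regions in the other libraries was 0.0 points with midpoints within 250 bp, 4.81 with peaks of at least 250 bp and 19.8 with equal lists. Loss at 2 or more neighbours minus none was 1.43 points within 10 kb and -0.87 within 20 kb, before adjustment for width. The cause was not tested. The differences at lost regions kept an exact permutation p of 0.00926, or 0.0313 with a replicate block, each the smallest possible. They ranged from -35.3 to -21.2 points, the latter with equal lists. Leaving out 1 library loosens the class rule by construction: lost regions numbered 9683 to 22819, gained regions 1764 to 10167 and kept regions 18096 to 19465. The difference in the other libraries then ranged from -38.0 to -17.3 points at lost and from -4.33 to 0.24 at gained regions, the positive value without DMSO replicate 1 of DND41 at 3 h. With a replicate block, peak number had a log2 ratio of -0.45 and an exact p of 0.50. Same-numbered libraries did not deviate together (correlation 0.0024 over kept regions at 24 h), so the numbers are not treated as pairs. For DND41 at 3 h that correlation was -0.112, and a block with its numbers crossed gave an exact p of 0.0313 for lost and 0.563 for gained regions. Depth is unknown, so loss of a peak and a signal below the detection limit cannot be told apart.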
